A study of Mus musculus with 11 samples.

Results

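Zfp is the mouse prefix for zinc finger protein genes, and the regions described here are those of genes whose symbol is Zfp followed by only a number, with an ending letter allowed. Zfp24, Zfp488 and Zfp536 were left out by the rule. It gave 364 regions of 357 symbols among the 21534 gene regions scored for contact with lamin B1, which forms part of the filament meshwork under the nuclear envelope, the nuclear lamina. RefSeq lists 354 of these symbols as protein-coding, 2 as transcribed pseudogenes (Zfp389 and Zfp572) and 1 (Zfp783) as a long non-coding RNA. Members of at least 3 symbols with gaps under 500 kb were grouped into a cluster, which placed 198 regions of 195 symbols in 27 clusters and left 166 scattered.

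The assay was DamID-seq: the bacterial enzyme Dam, an adenine methyltransferase, was fused to LMNB1 and marked DNA near the lamina, and free Dam served as the control. All cells were wild-type (WT in the labels) primary oligodendrocyte precursor cells (OPC) taken from the cortex of C57BL/6 mice at postnatal day 7, and all carried a lentivirus with Dam-LMNB1 or Dam for 1 day. The group called OL was kept for 72 h in differentiation medium (T3 in the labels) and holds 3 Dam-LMNB1 libraries, numbered 18, 19 and 20, and 3 Dam libraries. The group called OPC was kept for 72 h in proliferation medium (PF in the labels) and holds 3 Dam-LMNB1 libraries, numbered 8, 9 and 10, and 2 Dam libraries. DamID measures no RNA, so neither cell type could be checked against its marker genes, and the labels give neither the promoter that drove the transgene nor whether each library had a culture or animal of its own. Each region (median width 27.6 kb) has 1 value, so the exons, introns and UTRs of a gene share it. Regions also reach past the gene start: those of Zfp207 and Zfp184 begin well before the promoter windows printed below. That of Zfp534, on the minus strand, likewise ends well after its window. A score thus includes flanking DNA. Of the 364 regions 198 overlap the region of another symbol, which need not mean that the genes themselves overlap. Each of the 6 Dam-LMNB1 libraries has 1 score per region, set against the pooled Dam libraries of its condition. A score above 0 is read as more Dam-LMNB1 than Dam methylation, that is, contact with the lamina above the control.

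Most Zfp proteins carry arrays of Cys2-His2 zinc fingers, loops held by a zinc ion that read short stretches of DNA. In many of them a KRAB domain recruits Trim28, which brings Setdb1 and repressive histone methylation to the bound DNA, often a transposable element. The KRAB genes multiplied by tandem duplication and therefore often lie side by side in clusters of related copies. Other members are not of this kind, such as the RNA-binding protein Zfp36 (tristetraprolin), which promotes the decay of cytokine mRNAs.

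The promoters of 7 members show the range of sequence behind the scores. They come from RefSeq (GRCm38.p6) and run from 250 bases before to 50 bases after the gene start, 5′ to 3′ on the gene's strand, with each CG dinucleotide in capitals. Zfp534 (chr4:147702582-147702881, minus strand) had the highest mean score of all members, Zfp947 (chr17:22165928-22166227, minus strand) the highest of its cluster, Zfp207 (chr11:80383029-80383328, plus strand) the lowest of all members, and Zfp184 (chr13:21944844-21945143, plus strand) the largest rise in OL. Zfp119a (chr17:55878904-55879203, minus strand), Zfp959 (chr17:55891843-55892142, plus strand) and Zfp119b (chr17:55945210-55945509, minus strand) are neighbours with closely similar promoter windows and unlike scores.
Zfp534: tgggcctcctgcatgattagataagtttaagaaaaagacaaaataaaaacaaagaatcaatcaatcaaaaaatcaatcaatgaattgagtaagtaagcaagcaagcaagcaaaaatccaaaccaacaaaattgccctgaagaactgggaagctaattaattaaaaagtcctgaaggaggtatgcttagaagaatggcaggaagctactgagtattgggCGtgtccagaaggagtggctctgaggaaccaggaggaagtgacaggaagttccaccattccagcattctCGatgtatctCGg
Zfp947: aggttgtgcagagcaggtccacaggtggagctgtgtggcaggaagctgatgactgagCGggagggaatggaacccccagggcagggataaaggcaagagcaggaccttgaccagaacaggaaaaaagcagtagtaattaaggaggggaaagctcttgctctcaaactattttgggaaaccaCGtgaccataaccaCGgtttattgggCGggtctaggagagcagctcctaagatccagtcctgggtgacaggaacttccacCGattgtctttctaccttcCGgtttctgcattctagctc
Zfp207: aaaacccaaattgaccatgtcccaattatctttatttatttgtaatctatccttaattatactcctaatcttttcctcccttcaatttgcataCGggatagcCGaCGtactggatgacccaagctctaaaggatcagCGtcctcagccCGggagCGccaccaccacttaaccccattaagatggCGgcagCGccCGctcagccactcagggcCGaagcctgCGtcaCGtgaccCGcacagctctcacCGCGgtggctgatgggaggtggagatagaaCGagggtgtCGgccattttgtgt
Zfp184: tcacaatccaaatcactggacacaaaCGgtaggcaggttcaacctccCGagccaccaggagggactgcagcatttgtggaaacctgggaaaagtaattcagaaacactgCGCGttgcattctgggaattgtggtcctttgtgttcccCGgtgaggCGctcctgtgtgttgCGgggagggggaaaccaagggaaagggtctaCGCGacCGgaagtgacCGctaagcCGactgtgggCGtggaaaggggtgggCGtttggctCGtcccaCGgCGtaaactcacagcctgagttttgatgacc
Zfp119a: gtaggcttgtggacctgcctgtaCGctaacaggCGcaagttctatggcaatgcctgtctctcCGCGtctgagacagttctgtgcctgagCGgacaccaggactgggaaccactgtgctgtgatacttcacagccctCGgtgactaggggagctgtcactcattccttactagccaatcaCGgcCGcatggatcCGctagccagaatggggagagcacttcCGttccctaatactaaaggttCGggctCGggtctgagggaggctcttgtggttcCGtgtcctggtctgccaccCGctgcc
Zfp959: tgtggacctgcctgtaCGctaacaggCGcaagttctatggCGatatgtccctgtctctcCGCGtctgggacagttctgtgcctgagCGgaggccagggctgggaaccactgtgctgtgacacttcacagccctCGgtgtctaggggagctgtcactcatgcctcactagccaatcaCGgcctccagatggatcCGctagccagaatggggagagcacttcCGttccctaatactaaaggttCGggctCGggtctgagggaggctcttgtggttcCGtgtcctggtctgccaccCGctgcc
Zfp119b: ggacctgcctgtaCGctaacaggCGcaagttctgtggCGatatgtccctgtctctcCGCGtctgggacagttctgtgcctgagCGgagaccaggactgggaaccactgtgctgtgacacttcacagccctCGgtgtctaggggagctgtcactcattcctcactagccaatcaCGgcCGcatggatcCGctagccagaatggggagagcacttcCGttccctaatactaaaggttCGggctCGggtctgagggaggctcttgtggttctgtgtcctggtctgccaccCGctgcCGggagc
Zfp534 holds 3 CG and Zfp947 holds 6, against 17 in Zfp207 and 17 in Zfp184. The 3 neighbours hold 14, 14 and 15.

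Zfp regions lay mostly away from the lamina, at about the same share as other gene regions. With limma, two-sided and at a threshold of 0.05 after Benjamini-Hochberg adjustment over all 21534 regions, 84 of the 364 (23.1%) passed above 0 and 261 (71.7%) below 0 in OL, where 25.9% of all regions were above and 70.9% below. In OPC, 80 (22.0%) were above 0 and 266 (73.1%) below, where 25.5% of all regions were above and 71.4% below. The sign was the same in all 6 libraries for 339 members, with 81 above and 258 below 0. The other 25 regions (6.87%) had libraries on both sides of 0, as did 5.22% of all regions. Because the 3 libraries of a condition were compared with the same pooled Dam libraries, no SD or p here includes the variation between Dam libraries, a p measures only the spread between the libraries given, and a difference between conditions may come from Dam-LMNB1 or from Dam.

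The median score over the members was −1.15, −1.20 and −1.19 in OL libraries 18, 19 and 20, against −1.35, −1.34 and −1.33 in OPC libraries 8, 9 and 10. All 3 OL medians were above all 3 OPC medians. Over all regions the medians were −1.38, −1.50 and −1.49 in the OL libraries, against −1.53, −1.55 and −1.53 in the OPC libraries, and OL library 18 stood apart from the other OL libraries. Its part in the Zfp results is given below by leaving it out.

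Fewer Zfp regions than other regions sat at the top of the scale, and more sat in the middle. A mean score of 0.5 or more was reached by 63 members (17.3%), against 22.0% of all regions. The band of −1 to 0.5 held 91 members (25%), against 17.3% of all regions, and 210 members (57.7%) lay under −1, against 60.6%. Clustered members carried most of the middle band, with 29.3% of them in it, against 19.9% of the scattered ones. Of their 271 neighbours, the regions of other genes within the cluster spans, 31.0% lay in the middle band. They include 58 regions in the span at chr6:47817265-48625227, mainly cysteine tRNA genes, with a median of 0.12. The 10 Zfp members of that span had mean scores between −2.72 and −1.70, outside the band. The pooled share thus does not show that neighbours lie where the members of their cluster do. At 0.5 or more lay 12.9% of the 271 neighbours and 18.2% of clustered members. No test was made over members, since neighbours in a cluster are not independent.

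**Figure D1:**
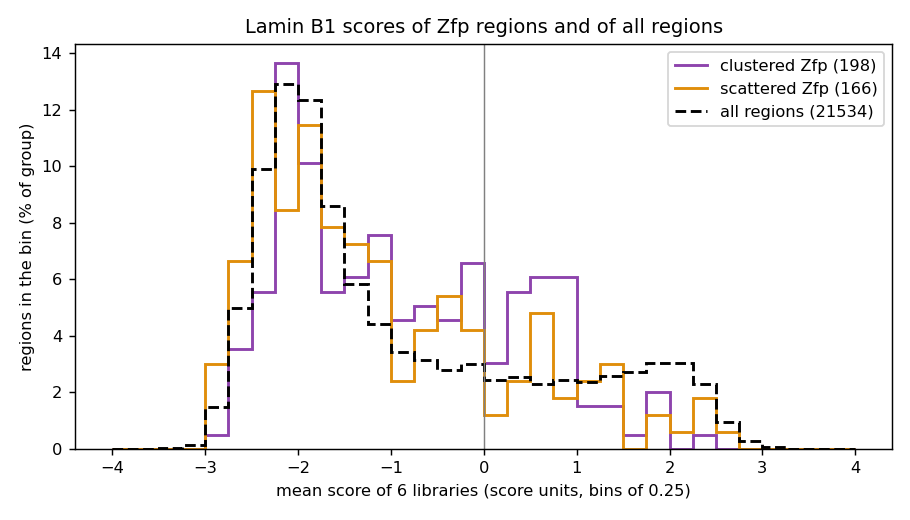
Percentage of regions (y axis) in bins of the mean score of 6 libraries (x axis, score units) for 198 clustered Zfp regions, 166 scattered Zfp regions and all 21534 regions. Clustered Zfp regions exceed all regions between −1 and 1 and fall short of them above 1, where all regions have a second, broad peak.

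Clustered members had a median score of −1.03 in OL and −1.19 in OPC, and scattered members −1.48 in OL and −1.55 in OPC. All regions had a median of −1.47 in OL and −1.54 in OPC. Among clustered regions 53 were above 0 and 134 below in OL, against 48 above and 140 below in OPC. Among scattered regions 31 were above 0 and 127 below in OL, against 32 above and 126 below in OPC. The share above 0 in OL was 26.8% for clustered and 18.7% for scattered regions, where 25.9% of all regions were above, and the share below was 67.7% for clustered and 76.5% for scattered ones, where 70.9% of all regions were below. In the 7 clusters of 8 or more regions, which hold 106 members, 36.8% were above 0 in OL and 33.0% in OPC, where 25.9% of all regions were above in OL and 25.5% in OPC. Almost all of these OL calls lay in the clusters of 24 regions on chromosome 13 (20 above 0) and of 20 regions on chromosome 17 (18 above 0). The cluster of 13 regions on chromosome 17 had 1 above 0 in OL, and those of 8 or more on chromosomes 6 and 7 had 0. A high share above 0 was thus not common to the large clusters.

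The clusters did not share 1 position. The median score of 16 clusters was under −1, that of 7 lay between −1 and 0, and that of 4 was over 0. In 14 clusters every member was below 0 in both conditions by the test. In 9 clusters OL members were called on both sides of 0, and in 6 clusters the lowest and highest members differed by more than 2 score units. The only cluster with every member called above 0 in OL lies at chr2:150112406-150495063 (mm10, as all region coordinates here) and holds Zfp120, Zfp937, Zfp442 and Zfp345, with a median of 1.59 in OL and 1.93 in OPC.

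**Figure D2:**
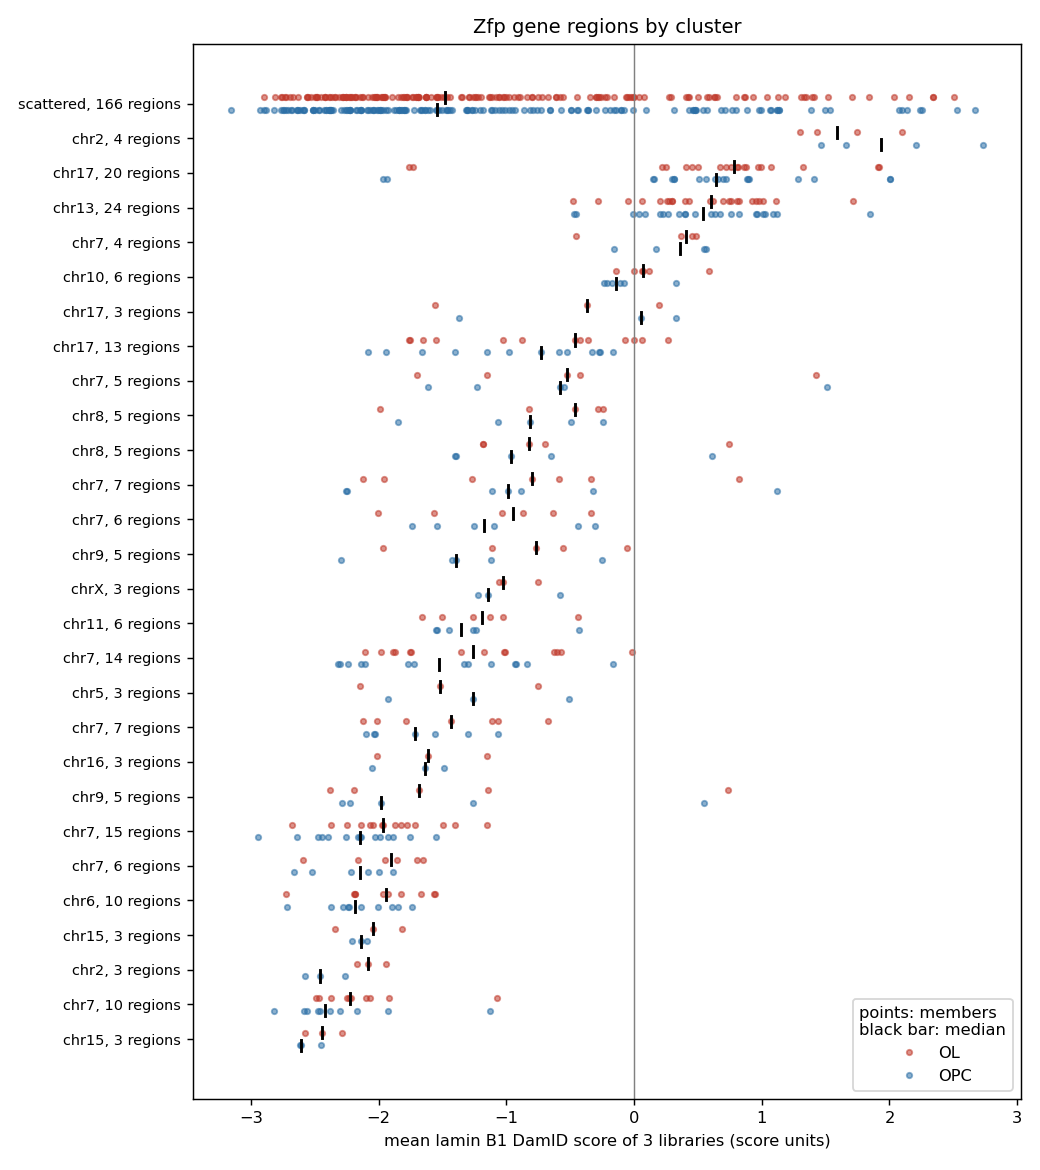
Mean lamin B1 score of 3 libraries (x axis, score units) for every Zfp region, by cluster (y axis, sorted by median, scattered members on top), with OL above OPC in each row and black bars at the medians. Cluster medians run from −2.44 in OL at the bottom to 1.59 in OL at the top, and single clusters such as the one of 20 regions on chromosome 17 span both ends.

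The largest cluster, chr13:66669076-67829000, holds 24 regions, among them Zfp708, a KRAB protein that silences a retroviral element family. Its median was 0.60 in OL and 0.54 in OPC, with 20 regions above and 2 below 0 in OL, against 19 above and 2 below in OPC. Zfp640 at its left end was the highest, at 1.58, 1.76 and 1.8 in OL libraries, against 1.87, 1.87 and 1.79 in OPC libraries. Zfp58 was the lowest, at −0.50, −0.53 and −0.41 in OL libraries, against −0.54, −0.56 and −0.26 in OPC libraries. OL and OPC libraries overlapped for both. The 5 regions to the left of the cluster had a median of 1.8 and the 5 to the right −1.02, so its flanks lay on opposite sides of 0. Of its members 0 were higher and 1 lower in OL (Zfp759, adjusted p = 0.0293, limma), a call that was lost without any 1 of the OL libraries and without OPC library 8 or 9. At an unadjusted p under 0.05 the counts were also 0 higher and 1 lower, and none of the 24 was called in the authors' deposited table.

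A second large cluster, chr17:20998940-23609487, had 20 regions and a median of 0.78 in OL and 0.64 in OPC. Zfp947 stood highest, at 1.84, 1.87 and 2.05 in OL libraries, against 1.98, 2.05 and 1.99 in OPC libraries, and Zfp820 lay beside it at 1.91 ± 0.06 in OL and 2.0 ± 0.07 in OPC (SD, n = 3 each). At the right end Zfp13 lay at −1.74, −1.76 and −1.79 in OL libraries, against −1.8, −2.02 and −2.08 in OPC libraries. OL and OPC libraries overlapped for Zfp947, as for Zfp820, and did not for Zfp13 (adjusted p = 0.123, limma). The 5 nearest regions had medians of 2.09 on the left and −1.5 on the right. Within the span lie 22 regions of other genes, mostly vomeronasal receptor and tRNA genes, with a median of 1.81. Zfp948 was among the members that changed: it had 0.97, 0.84 and 0.84 in OL libraries, against 0.34, 0.30 and 0.26 in OPC libraries. All OL libraries were above all OPC libraries, and the difference of 0.58 (SE 0.07) had an adjusted p of 6.87e-04 (limma). Zfp945 was also higher in OL, by 0.49 (adjusted p = 0.00254, limma), and Zfp677 lower, by −0.33 (adjusted p = 0.0112, limma).

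The 13 regions at chr17:32763496-33633714 formed a gradient. Zfp871 at the left end had a score of −1.75 ± 0.19 in OL and −2.09 ± 0.23 in OPC (SD, n = 3 each). Scores then increased broadly to the right, through Zfp472 at −1.03 in OL and −1.16 in OPC, to the neighbours Zfp955a and Zfp955b near 0. Zfp81 followed at 0.13, 0.30 and 0.36 in OL libraries, against −0.54, −0.24 and −0.22 in OPC libraries. For Zfp81 every OL library was above 0 and every OPC library below it, a difference of 0.60 (SE 0.10) with an adjusted p of 0.00322 (limma). Zfp101, next to it, was at 0.10, 0.11 and −0.04 in OL libraries, against −0.65, −0.38 and −0.55 in OPC libraries, higher in OL by 0.58 (SE 0.09, adjusted p = 0.00175, limma). Its OL and OPC libraries did not overlap, and 1 OL library was below 0.

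**Figure D3:**
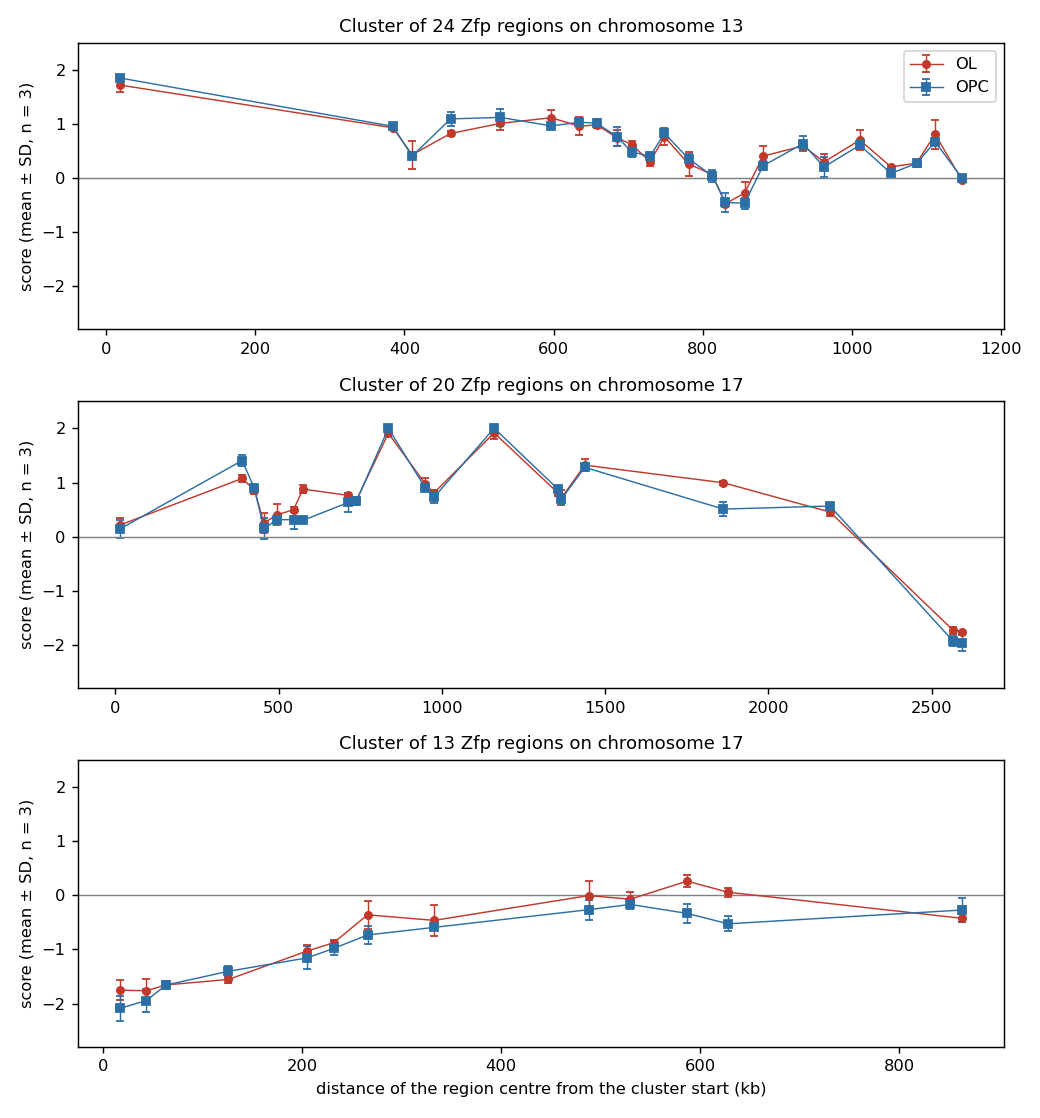
Score (y axis, mean ± SD of 3 libraries, score units) of each Zfp region against the distance of its centre from the cluster start (x axis, kb) in the clusters of 24 regions on chromosome 13 and of 20 and 13 regions on chromosome 17. The first stays above 0 except for a few regions near its middle and its end, the second falls below −1.7 at its right end, and the third climbs from its left end towards 0, where OL lies above OPC at Zfp81 and Zfp101.

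A sharp step was seen in a short cluster, chr17:55862891-55955259. Zfp119a had 0.27, 0.20 and 0.12 in OL libraries, against 0.43, 0.32 and 0.24 in OPC libraries. Zfp959 had −0.09, −0.42 and −0.60 in OL libraries, against 0.08, 0.13 and −0.04 in OPC libraries. Zfp119b had −1.41, −1.63 and −1.63 in OL libraries, against −1.1, −1.55 and −1.47 in OPC libraries. The scores fell stepwise towards the right, and the promoters printed above are close copies: Zfp119b and Zfp959 are 94.1% identical, Zfp119a and Zfp959 91.9%, and Zfp119a and Zfp119b 90.6%. The flanks have medians of 2.10 on the left and −1.71 on the right. Of the 3, only Zfp959 passed the test of change, lower in OL by −0.43 (SE 0.12, adjusted p = 0.0232, limma), a call lost without OL library 19 or 20 or OPC library 8 or 9, and its region overlaps that of Zfp119a.

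Close promoter copies had scores from nearly equal to far apart. In 9 pairs of clustered members with promoters at least 80% identical, the mean scores differed by a median of 0.42 (0.015 to 1.73). Of these, 3 pairs join the same 3 genes, Zfp119a, Zfp959 and Zfp119b, and are not independent. They differed by 0.42, 1.31 and 1.73, and so set both the median and the upper end. The remaining pairs at 80% or more differed by 0.015 to 0.46. In the 775 pairs within a cluster that were under 80% identical, the mean scores differed by a median of 0.51. Zfp955a and Zfp955b share an identical promoter window and had mean scores of −0.13 and −0.12, whereas the pair Zfp119a and Zfp119b marks the upper end. The sources used here do not say how reads matching several copies were placed, and the part of this in the scores of genes with close promoter copies was not tested.

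Symbols listed with 2 regions numbered 7. The cluster at chr10:81694824-82251275 holds Zfp433 and Zfp781 in 2 copies each, and the copies differed by 0.043 and 0.042 in mean score. The copy of Zfp433 at chr10:81853933-81883086 had 0.11, 0.06 and 0.04 in OL libraries, against −0.27, −0.29 and −0.09 in OPC libraries. The copy of Zfp781 at chr10:81740820-81781142 had 0.08, 0.14 and 0.13 in OL libraries, against −0.03, −0.02 and −0.18 in OPC libraries. Both lay above 0 in all OL libraries and below 0 in all OPC libraries, with differences of 0.29 (SE 0.08, adjusted p = 0.0184, limma) and 0.19 (SE 0.07, adjusted p = 0.0605, limma), and the first call was lost without OPC library 8 or 9. Zfp81 and these regions were the 3 of 364 members with such a change of sign, a smaller share than the 277 of all 21534 regions. The other copies of Zfp433 and Zfp781 did not change sign in this way. Zfp697 has a short and a long region with the same start, which scored −1.25 and 0.65 in OL, against −1.19 and 0.68 in OPC. Zfp1 is listed with the same region in duplicate, which was counted as deposited.

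Other clusters lay wholly below 0. The lowest, chr15:76850140-76935448 with Zfp251, Zfp7 and Zfp647, had a median of −2.44 in OL and −2.61 in OPC. The 10 regions at chr7:127223442-127887996 had −2.22 in OL and −2.42 in OPC, between Zfp747 at −2.37 in OL and −2.82 in OPC and Zfp629 at −1.07 in OL and −1.13 in OPC. The 10 regions at chr6:47817265-48625227 had −1.94 in OL and −2.18 in OPC, although the 58 other regions in the span, mainly cysteine tRNA genes, had a median of 0.12. Chromosome 7 holds 9 of the 27 clusters and 87 members.

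The flanks of many clusters lay on opposite sides of 0, but how often this holds for spans elsewhere was not examined. Of the 4 clusters with a median above 0, 1 had medians above 0 on both sides and 3 on 1 side. Of the 23 clusters below 0, 1 had both flanks above 0, 11 had 1 and 11 had none. Consecutive members of a cluster differed by a median of 0.34 in mean score, and 12.5% of 168 pairs by more than 1 unit. Consecutive regions over all chromosomes differed by a median of 0.33, and 13.8% by more than 1 unit.

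Single members covered nearly the whole scale. Zfp534 (chr4:147672224-147712631) had 2.41, 2.25 and 2.36 in OL libraries, against 2.62, 2.71 and 2.68 in OPC libraries. All OL libraries were below all OPC libraries, and it was lower in OL by −0.33 (SE 0.08, adjusted p = 0.0111, limma). Zfp804a, whose human counterpart is a risk gene for schizophrenia, had 2.28, 2.65 and 2.58 in OL libraries, against 2.31, 2.21 and 2.19 in OPC libraries, which overlap. It was called higher in OL under both scalings and without OL library 18 (adjusted p = 0.0171, 0.0286 and 0.00853, limma), and not as deposited. Zfp804b and Zfp352 also stood above 2 in both conditions.

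At the other end of the scale were Zfp207, Zfp143 and Zfp146. Zfp207 (BuGZ), which binds microtubules and loads the checkpoint protein Bub3 at kinetochores, lay at chr11:80373278-80398248 with −2.71, −2.79 and −2.77 in OL libraries, against −2.84, −3.27 and −3.36 in OPC libraries. OL and OPC libraries did not overlap, and its adjusted p of 0.0394 (limma, difference 0.40, SE 0.13) was lost in 7 alternatives, with both scalings and without any 1 of 5 libraries. Zfp143, an activator of small nuclear RNA gene promoters, had −2.74 ± 0.06 in OL and −2.93 ± 0.04 in OPC (SD, n = 3 each). Zfp146, whose human counterpart consists almost wholly of zinc fingers, had −2.68 ± 0.08 in OL and −2.95 ± 0.13 in OPC. Neither passed the test of change, with adjusted p of 0.0972 for Zfp143 and 0.0568 for Zfp146 (limma), although Zfp146 passed without the variance trend and without OPC library 10 (adjusted p = 0.048 and 0.0399, limma).

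Between conditions, more Zfp regions were higher in OL than lower, but this split depended on how libraries were scaled. At an adjusted p under 0.05, 78 members (21.4%) were higher and 26 (7.14%) lower in OL, where 23% of all regions were higher and 10.9% lower. Rises among the 78 ran between 0.23 and 0.84 with a median of 0.38, and falls among the 26 between −0.24 and −0.64 with a median of −0.42. Of the calls 75% were thus higher, but 53.8% with quantile normalization (42 higher and 36 lower) and 55.6% with the same mean and SD for each library (45 higher and 36 lower). Without OPC library 9 the count higher was 47, and without OL library 19 or 20 the count lower was 17. The share over all regions moved likewise, at 67.9% as deposited, 50.5% with quantile normalization and 50.5% with the same mean and SD. Of all 21534 regions, 3348 were higher and 3278 lower with quantile normalization, and 3330 higher and 3261 lower with the same mean and SD. These are larger shares than among the 364 members. OL and OPC libraries did not overlap in 151 members (41.5%), against 48.9% of all regions. A change of more than 0.5 was reached by 19 members (5.22%), against 8.33% of all regions.

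As deposited, the direction of calls went with level. Among the 80 members above 0 in OPC, the OL score was higher in 7 and lower in 14. Among the 266 below 0 in OPC it was higher in 71 and lower in 8. Over all regions the shares were 14.3% higher and 18.4% lower above 0, and 26.2% higher and 7.83% lower below 0. With quantile normalization the members below 0 had 36 higher and 18 lower, where 15.3% of all regions below 0 were higher and 13.9% lower. With the same mean and SD they had 37 higher and 16 lower, where 15.1% of all regions below 0 were higher and 14.5% lower. Over all regions the split below 0 was thus nearly even under both scalings. With each library left out these members had 43 to 56 higher and 4 to 12 lower, with 43 higher without OPC library 9, and 4 lower without OL library 19 and 5 without OL library 20 or OPC library 10. The members above 0 had 4 to 9 higher (5% to 11.25%), with 4 without OPC library 8 or 9, and 10 to 12 lower (12.5% to 15%). Over all regions above 0 the shares were 8.78% to 15.8% higher and 12.6% to 18.4% lower. With quantile normalization 6 of 82 members above 0 were higher and 15 lower, where 15.8% and 17.9% of all regions above 0 were. With the same mean and SD 8 of 82 were higher and 14 lower, where 16.2% and 16.3% of all regions above 0 were. Spearman's rho between the mean score and the difference between conditions was −0.24 across the 364 members and −0.25 across all 21534 regions. Both measures use the same libraries, and neighbours are not independent.

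Clustered members had 40 higher (20.2%) and 6 lower (3.03%) in OL, and scattered members 38 higher (22.9%) and 20 lower (12%), where 23% of all regions were higher and 10.9% lower. As deposited, the shares of rises in both, and of falls in scattered members, were thus near the background. With quantile normalization 18 clustered members were higher (9.09%) and 12 lower (6.06%), and 24 scattered ones higher and 24 lower (14.5% each). Over all 21534 regions 3348 were then higher and 3278 lower. With the same mean and SD 17 clustered members were higher (8.59%) and 12 lower (6.06%), and 28 scattered ones higher (16.9%) and 24 lower (14.5%). Over all regions 3330 were then higher and 3261 lower. Under both scalings the shares of clustered members lay below those of all regions, and the shares of scattered members near them. Without OPC library 9, 23 clustered and 24 scattered members were higher. Without OL library 20, 27 clustered members were higher and 3 lower, without OPC library 8 or 10, 26 were higher, and without OL library 19, 13 scattered members were lower. Counts in 3 clusters chosen after their values were seen are given as a description. At chr7:29758551-30179727, with 15 regions below 0 and a median of −1.97 in OL and −2.15 in OPC, 8 of 15 were higher in OL, where 26.2% of all regions below 0 in OPC were. It holds Zfp568, a KRAB protein that silences a placental transcript of Igf2, which did not pass (−1.97 in OL and −1.99 in OPC, adjusted p = 0.894, limma). That count of 8 was 3 with quantile normalization and 2 with the same mean and SD, near the 15.3% and 15.1% of all regions below 0 that were higher under these scalings. It was 3 without OL library 19, 4 without OPC library 8 and 6 without any other 1 library. At chr9:22053410-22317638, 4 of 5 members were higher as deposited, 2 with quantile normalization, 1 with the same mean and SD, 1 without OPC library 9 and 2 without OL library 20. At chr2:164889891-165398259, 3 of 3 were higher as deposited, 1 under either scaling and 1 without OL library 18 or 20 or OPC library 10.

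Zfp184 (chr13:21935093-21962485) had the largest rise. Its scores were −1.0, −1.45 and −1.42 in OL libraries, against −2.04, −2.21 and −2.16 in OPC libraries, a difference of 0.84 (SE 0.12, adjusted p = 0.00167, limma). Every OL library was above every OPC library, with OL library 18 the highest. Zfp365, which binds DISC1 and acts in oligodendrocyte differentiation, was next, with −1.21, −1.47 and −1.72 in OL libraries, against −2.21, −2.35 and −2.19 in OPC libraries. The difference of 0.78 (SE 0.13) had an adjusted p of 0.00256 (limma), and the gene stayed below 0 throughout. Zfp810 was higher by 0.63, Zfp780b by 0.60, Zfp81 by 0.60 and Zfp101 by 0.58.

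The largest falls were in regions at the lamina and in intermediate ones. Zfp345 (chr2:150468990-150495063) had 2.04, 2.12 and 2.12 in OL libraries, against 2.59, 2.84 and 2.77 in OPC libraries. It was lower in OL by −0.64 (SE 0.08, adjusted p = 0.00106, limma), with no overlap, and remained above 0 in all libraries. Zfp277, which acts with Polycomb proteins at the Ink4a/Arf locus, had −1.03, −1.05 and −0.99 in OL libraries, against −0.35, −0.51 and −0.47 in OPC libraries. It was lower by −0.58 (SE 0.07, adjusted p = 9.16e-04, limma) and below 0 in both conditions. The neighbours Zfp97 and Zfp960 on chromosome 17 were lower by −0.55 and −0.48, and Zfp600 by −0.49. Zfp750, a regulator of epidermal differentiation, was lower by −0.52 (adjusted p = 0.0225, limma), a call lost without OL library 19 or 20 or OPC library 9 or 10. The other 11 of these 12 calls held in every alternative run for them (both scalings, no variance trend, each library left out).

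**Figure D4:**
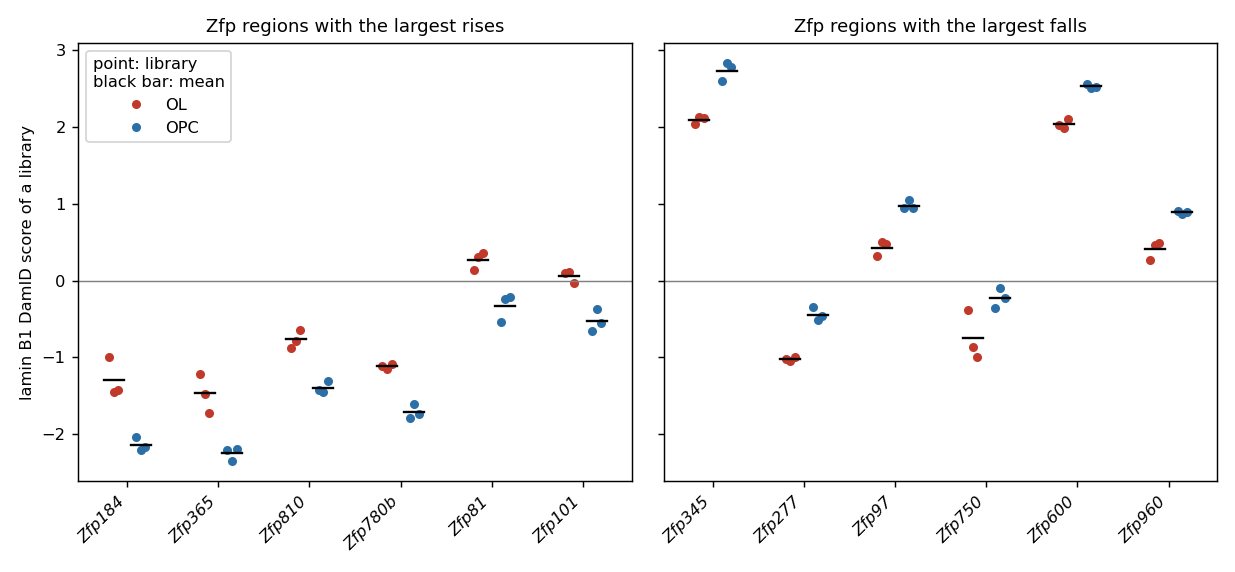
Lamin B1 score of each library (y axis, points) with the mean (black bar) for the 6 Zfp regions with the largest rises and the 6 with the largest falls, OL left of OPC. OL and OPC points are apart in each of the 12 regions because the choice of regions required it. Of the 6 falls, 4 start from OPC scores above 0.

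Members of known role were listed by symbol, and 31 of the 32 listed were found. Of these, 4 were above 0 and 27 below in OL, and 4 above and 26 below in OPC, while 9 were higher and 3 lower in OL. In shares, 12.9% were above and 87.1% below 0 in OL, where 25.9% and 70.9% of all regions were, and 29.0% were higher and 9.68% lower, near the 23% and 10.9% of all regions. The split of 9 and 3 turned with quantile normalization, to 5 higher and 6 lower, and was 6 higher and 5 lower with the same mean and SD. Without OL library 19 it was 6 higher and 0 lower, and with the other libraries left out in turn 4 to 10 higher and 1 to 3 lower. Zfp42 (Rex1), a marker of pluripotent stem cells, was above 0, with 1.27, 1.43 and 1.47 in OL libraries, against 1.13, 1.02 and 1.27 in OPC libraries. The lowest OL library was just under the highest OPC library, and the difference did not pass (adjusted p = 0.0513, limma) but did with the same mean and SD, without OL library 18 and without OPC library 10 (adjusted p = 0.0493, 0.0284 and 0.0396, limma). Zfp711, an X-linked gene altered in human intellectual disability, had 1.5, 1.53 and 1.53 in OL libraries, against 0.98, 1.13 and 1.25 in OPC libraries, higher by 0.40 (SE 0.08, adjusted p = 0.00635, limma).

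Of the genes that keep imprints or silence retroviral DNA, Zfp57, Zfp445 and Zfp809 were below 0. Zfp57, which protects imprinted methylation, had −0.91 ± 0.29 in OL and −1.12 ± 0.11 in OPC (adjusted p = 0.254, limma), and passed as higher without OL library 18 (difference 0.37, adjusted p = 0.026, limma). Zfp445, which shares that role, had −1.52, −1.73 and −1.82 in OL libraries, against −1.37, −1.05 and −1.38 in OPC libraries. It was lower by −0.42 (SE 0.12, adjusted p = 0.0205, limma), a call lost without OL library 19 or 20 or OPC library 9. Zfp809, a silencer of retroviral DNA, had −1.14, −1.11 and −1.09 in OL libraries, against −1.54, −1.46 and −1.27 in OPC libraries. Its rise of 0.31 (SE 0.09, adjusted p = 0.0246, limma) was lost in 6 alternatives, with both scalings and without any 1 of 4 libraries. Zfp708, in the chromosome 13 cluster, was above 0 at 0.43 ± 0.26 in OL and 0.40 ± 0.04 in OPC.

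Zfp281, Zfp521, Zfp423, Zfp36 and Zfp410 were below 0 in all 6 libraries. Zfp281, a transcription factor of embryonic stem cells, was higher in OL by 0.51 (SE 0.09, adjusted p = 0.00306, limma), at −1.15, −1.15 and −1.1 in OL libraries, against −1.51, −1.75 and −1.66 in OPC libraries. Zfp521, a factor of neural and blood progenitors, was lower by −0.35 (SE 0.09, adjusted p = 0.0154, limma), at −2.02 ± 0.11 in OL and −1.67 ± 0.03 in OPC, a call lost without OL library 19. Its relative Zfp423 did not pass the test (−1.97 in OL and −1.79 in OPC, a difference of −0.19, adjusted p = 0.154, limma). It did pass under both scalings, lower by −0.33 with quantile normalization (adjusted p = 0.0111, limma) and by −0.31 with the same mean and SD (adjusted p = 0.0142, limma). Zfp36 was at −2.01 in OL and −2.03 in OPC. Zfp410, an activator of Chd4, was at −2.77 in OL and −2.59 in OPC, and its Chd4 target at −2.32 in OL and −2.50 in OPC. Neither of these 2 genes passed the test of change (adjusted p = 0.295 for Zfp410 and 0.166 for Chd4, limma).

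In the authors' deposited table, 4 members had an adjusted p under 0.05, where 3.14% of all regions did in the same table. These were Zfp948, Zfp385b and Zfp827, higher in OL, and Zfp600, lower in OL. All 4 were called in the same direction by limma.

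Most genes through which KRAB zinc finger proteins silence DNA were below 0, as were most regions. Of the 34 regions of 33 such genes, 2 were above 0 and 31 below in OL, against 1 above and 32 below in OPC, and 10 were higher and 1 lower in OL. In shares, 5.88% were above and 91.2% below 0 in OL, where 25.9% and 70.9% of all regions were, and 29.4% were higher and 2.94% lower, where 23% and 10.9% of all regions were. With quantile normalization 4 were higher and 3 lower, with the same mean and SD 7 higher and 3 lower, and with each library left out 4 to 9 higher and 0 or 1 lower, the 4 without OPC library 9. Trim28, the KRAB corepressor, had −1.81, −1.83 and −1.93 in OL libraries, against −1.74, −2.20 and −2.35 in OPC libraries, and the groups overlapped. Setdb1, the histone methyltransferase of that pathway, had −2.10 ± 0.12 in OL and −2.29 ± 0.19 in OPC (SD, n = 3 each). Higher in OL were Uhrf1, a reader of newly replicated methylated DNA, by 0.58 (adjusted p = 0.00176, limma), the histone chaperone gene Daxx by 0.53 and the maintenance methyltransferase gene Dnmt1 by 0.51. Atf7ip, a partner of Setdb1, was lower by −0.35 (adjusted p = 0.0147, limma), a call lost without OPC library 8.

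Other zinc finger families are given as a description without a test. Over all regions 25.9% were above and 70.9% below 0 in OL. By limma, 0 of 41 Zbtb regions were above 0 in OL and 39 below (95.1%). Of 17 Zscan regions 7 were above and 9 below 0 in OL, of 11 Zkscan regions 0 were above and 10 below, and of 17 Klf regions 1 was above and 15 below. The Zbtb and Zkscan counts above 0 were also 0 at an unadjusted p under 0.05. Sp genes had 4 above and 8 below 0 in OL among 13 regions.

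Promoters of Zfp genes near the lamina held fewer CG dinucleotides. RefSeq gave a promoter window for 295 of the 357 symbols, and where a symbol had several the one with most CG was used. The median was 9 CG in the 71 genes with a mean score above 0 and 17 in the 224 below 0. Over all gene regions the medians were 3 above 0 and 20 below, and no test was made of these counts. Spearman's rho between CG count and score was −0.41 across 295 Zfp genes and −0.48 across 15109 genes, and base composition and position are shared by neighbours.

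**Figure D5:**
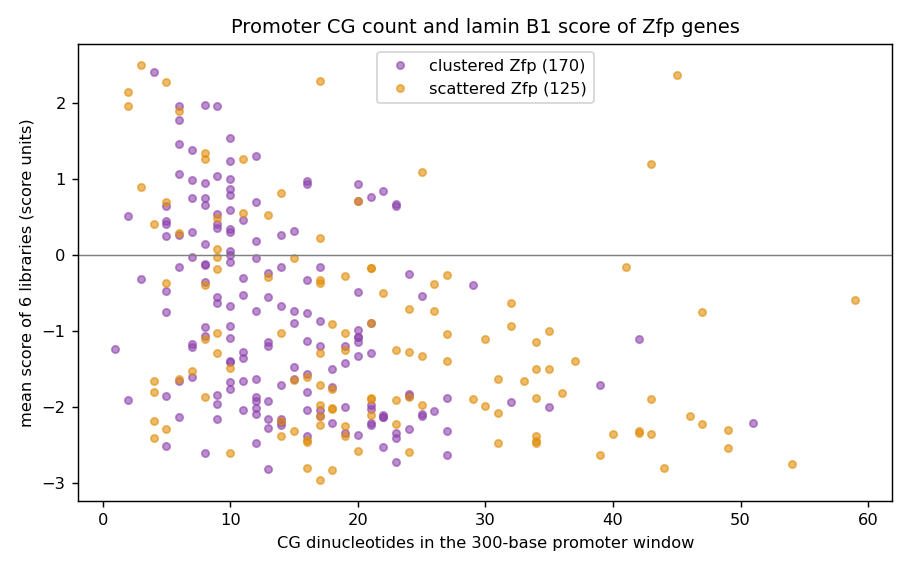
Mean score of 6 libraries (y axis, score units) against the number of CG dinucleotides in the promoter window (x axis) for 170 clustered and 125 scattered Zfp genes. Genes above 0 lie mostly at low CG counts (median 9), and genes with low counts occur at all scores.

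Short motifs were searched on both strands of these windows, and a match describes only the letters. CCGGAAG, the core of sites for ETS factors, was in 21.0% of Zfp promoters, 12.8% of all genes with a score and a promoter, and 8.86% of all promoters in the table. It was in 26.8% of Zfp promoters above 0 and 19.2% below 0, whereas over all genes it was in 4.89% above and 15.8% below. The Zfp947 and Zfp184 windows printed above hold it. AAGATGGC, the core of the YY1 motif, was in 6.10% of Zfp promoters and 3.47% of all genes, with 0 of the 71 above 0 and 8.04% below, whereas over all genes it was in 1.33% above and 4.25% below. It is in the Zfp207 window. CCAAT was in 43.4% of Zfp promoters and 37.8% of all genes. TATAAA was in 5.42% of Zfp promoters and 12.2% of all genes, and above 0 it was in 2.82% of Zfp promoters and 24.6% of all genes. No motif was tested against score, and a missing match says only that these letters are not in the window.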

How the data were processed

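Lamin B1 DamID-seq was analysed in 3 OL and 3 OPC Dam-LMNB1 libraries. The submitters' processing notes name BWA 0.7.17 and cutadapt 1.9.1, with mm10 as the genome build. The authors deposited 1 score per library and gene region, set, per the file headers, against the pooled Dam libraries of the same condition. The score has no stated log base, so differences are in score units and are not folds. The authors also deposited a p-value and an adjusted p-value per region for OL against OPC, whose test no header or label names. Read depth is unknown, so no counting interval could be given.

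The members and gene lists were chosen with earlier results of these data known. The scores were used as deposited, with no filter or pseudocount. limma 3.58.1 (R 4.3.3) was fitted over all 21534 regions with 1 mean per condition and a variance trend (9.42 total degrees of freedom), tested on simulated data, and adjusted by Benjamini-Hochberg at 0.05. Clusters, flanks (5 regions per side) and promoters were handled with Python 3.11.15, pandas 2.3.3 and Biopython 1.88 (global alignment, identity over the aligned length). Promoters are from RefSeq (GRCm38.p6), 300 bases each. Named members are the 3 highest and 3 lowest, up to 6 rises and 6 falls with an adjusted p under 0.05 and no overlap, the ends of clusters of 8 or more, 32 listed genes of known role and changes of sign in all libraries. Others named in the report were chosen after their values were seen.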

Additional observations from a re-analysis of the deposited data

How the results depend on the processing

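Counts against 0 stayed at 82 to 84 above and 260 to 264 below in OL, and 78 to 80 above and 262 to 269 below in OPC, when each library was left out, and within 2 of the reported counts with both scalings and without the variance trend. Among the 166 members whose region overlaps no other, 50 (30.1%) were above and 100 (60.2%) below 0 in OL, 48 above and 108 below in OPC, 34 higher and 16 lower in OL. These counts are over fewer members, but the shares against 0 moved too (23.1% above and 71.7% below in OL over all members), and the cause was not tested. Counts of change moved: 42 members were higher with quantile normalization and 45 with the same mean and SD, and by the authors' deposited adjusted p 3 were higher and 1 lower. With a library left out, 47 to 65 were higher (47 without OPC library 9, 65 without OL library 18) and 17 to 25 lower (17 without OL library 19 or 20). The cause was not tested. Of 27 named members called between conditions, 15 passed in every alternative. A cluster gap of 200 kb gave clustered members a median of −1.12 in OPC, and 1000 kb gave −1.23, with −1.58 for scattered ones. The change of sign, the split by level and the promoter choice were alternatives chosen after seeing the data. With the first-listed promoter the median was 9 CG above 0 and 17 below. No paired analysis was possible because the OL and OPC libraries share no number. Read depth is unknown, so small differences cannot be set against counting error.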
